A study of Mus musculus with 8 samples.

Results

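Regulatory T cells (Treg) in beta cell grafts were taken as the cells that the depositors' annotation names Treg, which is cluster 15 of its 29 clusters. They were 505 of 22441 CD45+ cells (2.25%), in 16 grafts. The annotation was made from the same counts, so values that separate Treg from other types are given as descriptions. The grafts were NIT-1 cells, an insulin-producing line from a beta cell tumour of a NOD mouse, either wild-type (WT) or Rnls mutant. Both lines were injected under the skin of immunodeficient mice, which lack T and B cells of their own, and all hosts then received splenocytes from diabetic NOD mice by vein. CD45+ cells were collected 10 or 17 days after that transfer, and there was no graft without transferred cells.

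Each genotype and day was 1 droplet library that pooled 4 grafts marked by hashtag antibodies, so a library cannot be told apart from its group. Grafts are named here by genotype, day and hashtag number. The labels do not say which WT and Rnls mutant grafts shared a mouse, so the main genotype tests took the grafts as unpaired. The p-values measure the spread between grafts of 1 library. Rnls itself was not analysed here. Annotated Treg held 1456874 unique molecular identifiers (UMIs), with a median of 2444 per cell against 2823.5 in CD4 T cells, and no cell held fewer than 1001. Depth differed between the groups. The median UMIs per Treg, averaged over 4 grafts, was 2625.5 in Rnls mutant day 10 and 2319 in WT day 10. At day 17 it was 2023 in Rnls mutant and 3581.5 in WT grafts. In CD4 T cells it was 3022, 2683, 2294 and 4710 in the same order. The part of depth in the comparisons below was not tested. Of the 22441 cells, 84 carried a barcode seen in more than 1 library, and 2 of them were Treg.

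Treg are the CD4 T cells that hold back autoimmune and inflammatory responses. Their fate is set by the transcription factor Foxp3, and they take up interleukin 2 through the high-affinity receptor chain Il2ra. They act through inhibitory receptors such as Ctla4, through cytokines such as Il10 and Tgfb1, and in tissues also through the repair factor Areg. In NOD mice, loss of Foxp3+ cells speeds autoimmune diabetes.

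The name was checked against the defining markers. Foxp3 (chrX:7573644-7595245, + strand, mm10) had a UMI in 50.9% of Treg and in 0.267% of the 4876 annotated CD4 T cells. Macrophages, which should lack it, had Foxp3 in 0.125% of cells at a median of 4719 UMIs. Ikzf2 (chr1:69531214-69687245, - strand), which encodes the Foxp3 partner Helios, had a UMI in 93.1% of Treg and 11.4% of CD4 T cells. Il2ra (chr2:11642807-11693193, + strand) was less selective, in 55.8% of Treg and 36.3% of CD4 T cells. With every cell thinned to 1000 UMIs, which no cell fell under, the shares for Foxp3 were 26.5% and 0.123%, for Ikzf2 79.4% and 5.13%, and for Il2ra 34.5% and 15.9%. Ncr1 of NK cells and Ins2 of beta cells each had a UMI in 0 of 505 Treg, which allows up to 0.594% of cells with a UMI and says nothing of cells that express the gene below 1 UMI. Of 10 CD8 T cell and NK cell markers 8 had a UMI in Treg, with a sum of 0 to 168 CPM (UMIs of a gene scaled to a fixed total) per graft against 189 to 414 CPM in CD4 T cells. Lyz2, a macrophage transcript found in 99.3% of macrophages, had a UMI in 36.4% of Treg and 37.3% of CD4 T cells.

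**Figure D1:**
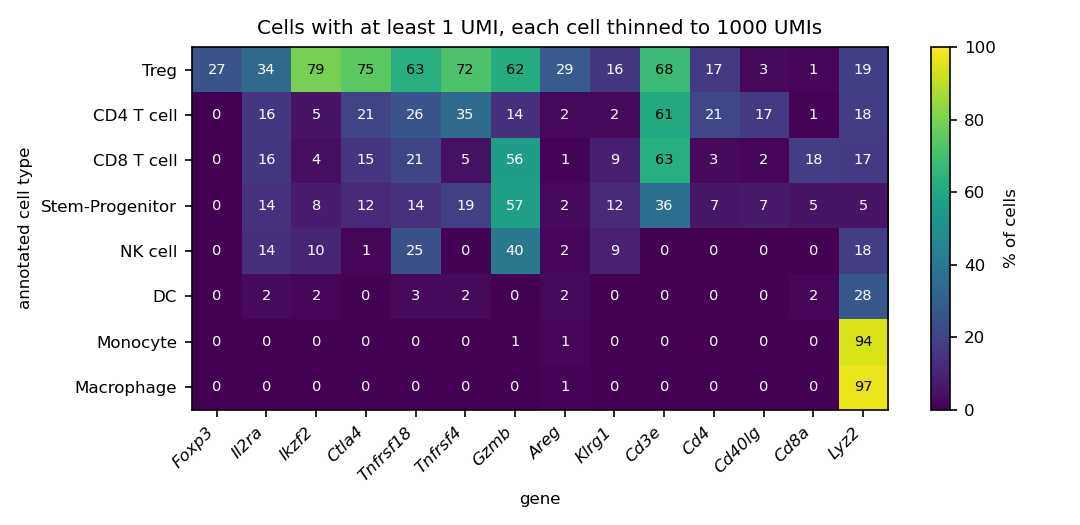
Percent of cells with at least 1 UMI of each gene (columns) in 8 annotated types (rows), with every cell thinned to 1000 UMIs and the percent printed in each square. Foxp3 stands at 26.5% in Treg and 0.123% in CD4 T cells, and Ikzf2 at 79.4% and 5.13%, while Lyz2 is highest in macrophages and monocytes.

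Of 310 cells with a Foxp3 UMI in the whole table, 257 (82.9%) were annotated Treg. Among the other 53, 21 lay in the type named Stem-Progenitor, whose cells carried cell cycle transcripts, 13 in CD4 T cells and 9 in macrophages. All 21 Stem-Progenitor cells with Foxp3 had UMIs of Mki67, Top2a and Il2ra, 19 had Ikzf2, 20 had Ctla4 and 1 had Cd8a. The 613 other Stem-Progenitor cells with Cd3e, a CD3 chain of the T cell receptor complex, had Ikzf2 in 19.6%. These 21 cells were deep, with a median of 15743 UMIs, and thinned to 1000 UMIs they held Ikzf2 in 71.4% against 5.38% in the other cycling T cells. Thinned Ctla4 was in 33.3% of the 21, 14.2% of the other cycling T cells and 74.7% of Treg. For Il2ra these were 38.1%, 13.2% and 34.5%, and for Gzmb 47.6%, 47.1% and 61.8%. The 21 cells were 14 of the 421 Stem-Progenitor cells of WT day 10 grafts, 4 of 330 of Rnls mutant day 10, 2 of 19 of WT day 17 and 1 of 60 of Rnls mutant day 17 grafts. They were not members of the annotated Treg and entered no comparison below.

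The first comparison was how many Treg each graft held. Rnls mutant day 10 grafts 1 to 4 held 34, 21, 82 and 30 Treg, which was 2.04%, 1.39%, 5.02% and 1.63% of their CD45+ cells. WT day 10 grafts held 61, 29, 42 and 48 Treg, or 3.26%, 1.47%, 2.19% and 2.57%. Rnls mutant day 17 grafts held 31, 21, 42 and 8, or 1.60%, 1.29%, 3.05% and 1.47%. WT day 17 grafts held 14, 6, 21 and 15, or 1.60%, 1.71%, 1.89% and 4.25%. The groups overlapped, and in 3 of the 4 the highest graft lay more than 1 percentage point above the next. The exact (Clopper-Pearson) 95% binomial interval, which covers counting error only, ran from 0.802 to 1.97% for the lowest graft, Rnls mutant day 17 graft 2, and from 4.01 to 6.19% for the highest, Rnls mutant day 10 graft 3. The 4.25% of WT day 17 graft 4 rested on 15 of 353 cells, with an interval of 2.40 to 6.91%.

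Treg were 2.52% ± 1.69 (SD, n = 4) of CD45+ cells in Rnls mutant and 2.38% ± 0.747 (n = 4) in WT grafts at day 10. At day 17 they were 1.85% ± 0.806 and 2.36% ± 1.26. By 2-sided exact permutation tests the genotypes differed by 0.144 percentage points at day 10 (p = 0.914) and -0.511 at day 17 (p = 0.486). The smallest p that 4 against 4 grafts allow is 0.0286. The change from day 10 to day 17 was -0.013 percentage points in WT (exact permutation p = 1.0) and -0.668 in Rnls mutant grafts (exact permutation p = 0.543). All 6 comparisons, with those over both days or both genotypes, had an adjusted p of 1.0. As a share of Treg and CD4 T cells together, Treg ranged from 4.15% in Rnls mutant day 10 graft 2 to 23.3% in WT day 17 graft 3, and the exact permutation p for the 6 comparisons ran from 0.293 to 0.743.

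**Figure D2:**
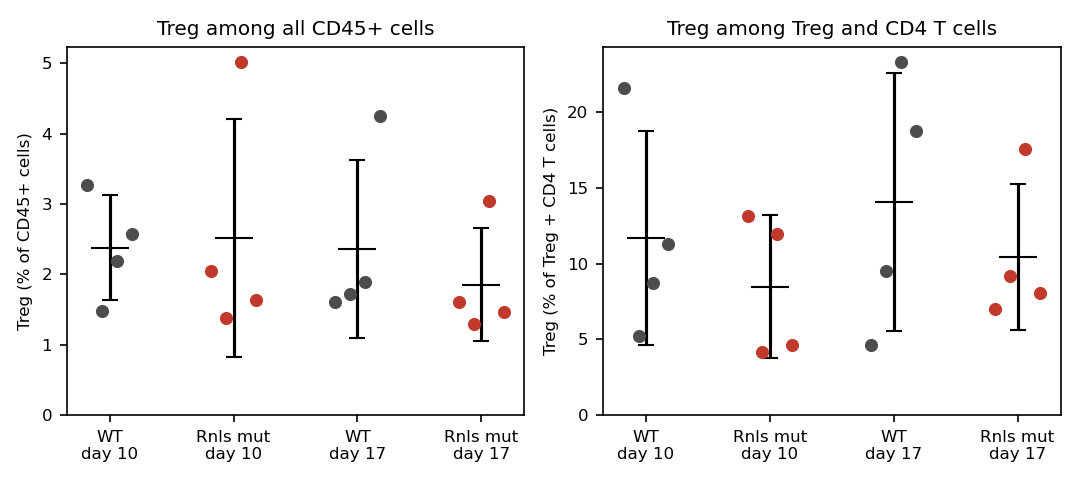
Treg per graft as a percent of CD45+ cells (left) and of Treg plus CD4 T cells (right), by genotype and day (WT grey, Rnls mutant red), with 1 point per graft and the group mean ± SD (n = 4 grafts). The groups overlap, and WT day 17 graft 4 stands highest in its group on the left at 4.25%.

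For expression, UMIs were summed over the Treg of each graft, and the 14 grafts with at least 10 Treg (491 cells) were used. Rnls mutant day 17 graft 4 (8 cells) and WT day 17 graft 2 (6 cells) were left out, so day 17 had 3 grafts per genotype. Levels are given as CPM of these sums. Foxp3 stood at 398, 325, 258 and 224 CPM in Rnls mutant day 10 grafts, 319, 296, 331 and 290.4 in WT day 10 grafts, 277, 333 and 326 in Rnls mutant day 17 grafts 1 to 3 and 162, 400.5 and 296 in WT day 17 grafts 1, 3 and 4. The 4 groups overlapped. In CD4 T cells of the same grafts the highest Foxp3 level was 2.63 CPM.

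Beside CD4 T cells of the same graft, 274 of 3581 genes with a mean of at least 50 CPM in the higher type (7.65%) were higher in Treg in each of the 14 grafts, and 234 (6.53%) were lower in each. The values that follow are medians over the 14 grafts of the log2 ratio of Treg to CD4 T cells, with 10 CPM added to both. They are given with no test, since the clusters were made from these genes. Ikzf2 (5.02) and Foxp3 (4.88) led. The interferon-inducible GTPase Iigp1 stood at 3.88, the interleukin 33 receptor Il1rl1 at 3.86, Areg at 3.72, the exhaustion-linked factor Tox at 3.51, the integrin chain Itgae at 3.41, the folate receptor 4 gene Izumo1r at 3.40 and the granule protease Gzmb at 3.33. Neb (3.61), Igkc (3.35) and Myo1e (3.34) completed the 12 highest. Igkc is an immunoglobulin chain made by B lineage cells, and whether its UMIs came from Treg was not tested.

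At the other end, the interferon-induced membrane protein gene Ifitm1 stood at -6.06, the CD30 ligand Tnfsf8 at -4.10, the cytokine Ifng at -4.06, the chemokine receptor Cxcr6 at -3.37 and the survival factor Bcl2 at -3.08. The NK-type receptors Klrc1 (-3.94), Klrd1 (-3.60), Klrc2 (-3.11) and Klrk1 (-3.04) were also lower in each graft, as were Mctp2 (-3.24), Tbc1d4 (-2.90) and BC018473 (-2.83). Tbx21, the factor of the Th1 lineage, was at -1.28 and the helper ligand Cd40lg at -2.53, both lower in each of 14 grafts.

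By role, 6 of 11 Treg transcription factors were higher in each graft and 1 was lower. Of 10 costimulatory receptors, 6 were higher in each graft and 0 lower, among them Tnfrsf9 (3.04), Tnfrsf18 (1.65), Tnfrsf4 (1.36) and Icos (1.02). Of 9 suppressive receptors and ectoenzymes, 3 were higher in each, including Ctla4 (2.67), while the exhaustion receptor Havcr2 stood at -1.02. Tgfb1 stood at -0.03, lower in 8 of 14 grafts and higher in 6. Of 14 genes of the effector Treg program, 7 were higher in each and 2 lower. The listed interferon stimulated genes leaned to Treg, with 8 of 17 higher in each graft, 0 lower and a list median of 1.17 against 0.05 over all 3581 genes. The list did not hold Ifitm1, which was lower in Treg as given above. In that list Ifi27l2a stood at 1.90, Igtp at 1.39 and Gbp2 at 1.14, while Irf7, a regulator of interferon production, stood at -0.49. Of 10 Th1-type genes, 1 was higher in each and 3 were lower.

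The share of Treg with a UMI was taken for effector genes, which at this depth is no count of the cells that express them. Gzmb had a UMI in 73.1% of Treg, 24.3% of CD4 T cells and 73.1% of CD8 T cells, and in 61.8%, 13.9% and 56.0% with cells thinned to 1000 UMIs. In macrophages, at a median of 4719 UMIs, it was in 1.43%. Areg was in 41.8% of Treg (28.7% thinned), 3.84% of CD4 T cells and 2.81% of macrophages, and the inhibitory receptor Klrg1 in 28.5% (15.8% thinned), 6.99% and 0.0836%. Il10 was sparse, with UMIs in 4.16% of Treg and 0.410% of CD4 T cells, and 4.05% of macrophages, which also make it, and Itgb8, an integrin chain that frees active Tgfb1, was in 15.4% and 0.0615%. In thinned Treg of day 10, Gzmb was found in 64.8% of the 91 cells with Areg and in 72.7% of the 256 without it. At day 17 it was found in 35.2% of the 54 cells with Areg and in 46.2% of the 104 without it. Cells of 1 graft share their source, so these shares are descriptions.

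Between day 10 and day 17, Treg changed in 366 of 2331 genes tested (15.7%), 184 of them higher at day 17 (7.89%) and 182 lower (7.81%). This was the mean change over both genotypes, by edgeR's quasi-likelihood test at a Benjamini-Hochberg adjusted p under 0.05. All log2 fold changes below are from these fits, as day 17 over day 10 with their standard errors. Of the early response genes of T cell receptor and NF-kB signaling 8 of 13 tested rose, of the interferon stimulated genes 8 of 15 fell, and Foxp3, Il2ra and Ctla4 did not pass the test. The gene lists were chosen with earlier results of these data known, so counts per list are descriptions. In WT grafts alone 199 genes passed (8.54%) and in Rnls mutant grafts alone 169 (7.25%), which fell to 101, 75 and 66 without Rnls mutant day 17 graft 1, 2 or 3 and to 82 without Rnls mutant day 10 graft 3. The count for the mean change was 232 with DESeq2 and 212 without the Treg that carried 2 or more UMIs of other types' markers. It was 134 in Treg with a Foxp3 UMI, where WT day 17 kept 1 graft.

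Among 10 tested Treg transcription factors, 2 rose and 0 fell, with a median of 0.36 against -0.01 over all genes. Ikzf2 stood at 1842, 1448, 1567 and 2343 CPM in Rnls mutant day 10 grafts, 1899, 1960.5, 2091 and 1917 in WT day 10 grafts, 2854, 4076 and 3988 in Rnls mutant day 17 grafts and 3349.9, 2686 and 2798 in WT day 17 grafts. Every day 17 graft lay above every day 10 graft. Ikzf2 rose by 0.74 ± 0.10 (adjusted p = 2.0e-05), and it passed in each genotype alone. Bach2, a repressor that restrains effector genes, rose by 0.88 ± 0.23 (adjusted p = 0.01). Foxp3 had a log2 fold change of -0.02 ± 0.18 (adjusted p = 0.95).

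None of the 9 tested genes of the interleukin 2 receptor and its signaling, of the 8 suppressive receptors and ectoenzymes or of the 8 Th1-type genes passed the test for the mean change. By edgeR, Il2ra had a log2 fold change of 0.16 ± 0.24 (adjusted p = 0.68), Ctla4 0.20 ± 0.13 (adjusted p = 0.3) and Tigit -0.52 ± 0.29 (adjusted p = 0.23). Of 8 costimulatory receptors 2 fell. They were Tnfrsf18 (-0.52 ± 0.12, adjusted p = 0.0035), known as GITR, and Tnfrsf4 (-0.36 ± 0.11, adjusted p = 0.031), known as OX40. Tnfrsf4 did not pass without Rnls mutant day 10 graft 3, Rnls mutant day 17 graft 2, WT day 10 graft 4 or WT day 17 graft 1.

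Of 5 tested suppressive cytokines and effectors 2 fell, Gzmb and Lgals1. Gzmb (chr14:56258838-56262260, - strand) stood at 2878, 4572, 4287 and 3228 CPM in Rnls mutant day 10 grafts and 1599, 2971, 3261 and 3361 in WT day 10 grafts. At day 17 it stood at 1109, 960.3 and 936 CPM in Rnls mutant and 554, 2219 and 729 in WT grafts. In Rnls mutant grafts the days did not overlap, while WT day 17 graft 3 lay above WT day 10 graft 1. The log2 fold change was -1.57 ± 0.21 (adjusted p = 8.2e-06). Lgals1, a galectin that can drive T cell death, fell by 0.91 ± 0.17 on the log2 scale (adjusted p = 0.00045).

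Areg stood at 659, 277, 788 and 617 CPM in Rnls mutant day 10, 619, 715, 339.5 and 537 in WT day 10, 624, 549 and 478 in Rnls mutant day 17 and 554, 2061 and 847 in WT day 17 grafts. WT day 17 graft 3 was the highest, and the days overlapped. Its mean log2 fold change was 0.45 ± 0.23 (adjusted p = 0.18), and in WT grafts alone it was 1.10 ± 0.31 (adjusted p = 0.023), while the difference of this change between the genotypes did not pass. The WT value was 0.28 without WT day 17 graft 3 and did not pass there, nor without WT day 10 graft 3 or 4. Of 14 tested genes of the effector Treg program, 1 rose and 0 fell: Maf, a factor that drives Il10, at 0.49 ± 0.15 (adjusted p = 0.027), a call that was lost in 5 of 14 fits that left out 1 graft. Il1rl1 (-0.27 ± 0.20) and Klrg1 (0.43 ± 0.24) did not pass, with adjusted p of 0.37 and 0.23.

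**Figure D3:**
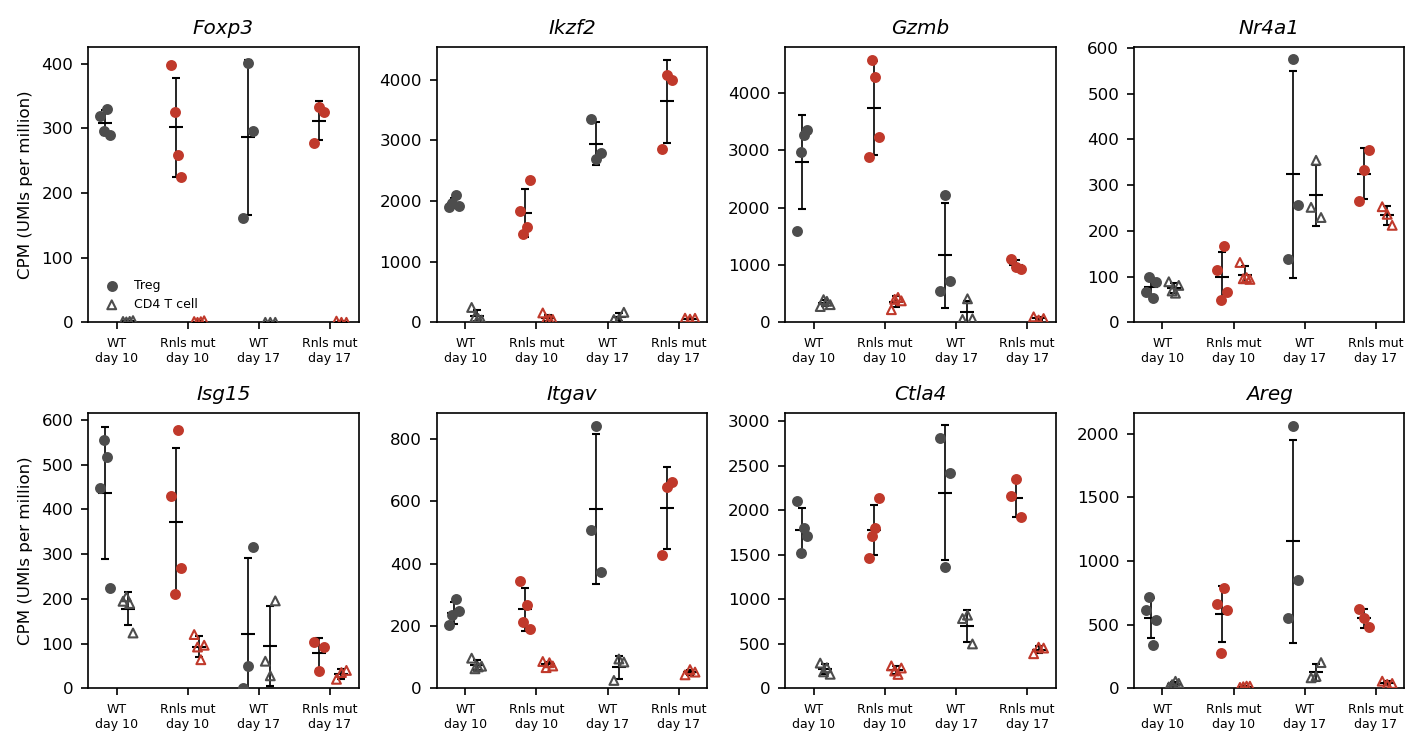
Levels in CPM of 8 genes in the Treg (filled circles) and CD4 T cells (open triangles) of each graft with at least 10 Treg, by genotype and day (WT grey, Rnls mutant red), with the mean ± SD of each group (n = 4 grafts at day 10 and 3 at day 17). Group means of Gzmb and Isg15 in Treg are lower at day 17, those of Ikzf2, Itgav and Nr4a1 are higher, and the Foxp3 groups overlap.

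T cells switch on early response genes within minutes to hours of receptor or cytokine signaling. Of 13 tested, 8 rose and 0 fell, with a median of 0.95 against -0.01 over all genes. Whether such signaling set off these rises was not tested. Nr4a1, an immediate target of the T cell receptor, stood at 115, 48.8, 168 and 67.3 CPM in Rnls mutant day 10 and 67.4, 98.6, 53.6 and 87.1 in WT day 10 grafts. At day 17 it stood at 266, 333 and 376 and 139, 576 and 256 CPM. In Rnls mutant grafts every day 17 value lay above every day 10 value, and in WT grafts likewise. Nr4a1 rose by 1.83 ± 0.26 (adjusted p = 2.9e-05).

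The other 7 were the AP-1 genes Fosb (1.89 ± 0.40, adjusted p = 0.002) and Junb (0.91 ± 0.14, adjusted p = 8.9e-05), the phosphatase Dusp1 (1.79 ± 0.27), Nr4a3 (1.11 ± 0.27), and the NF-kB genes Nfkb1 (1.19 ± 0.15), Rel (0.91 ± 0.18) and Tnfaip3 (0.97 ± 0.18). Nfkb1 was also among the 10 genes with the smallest p that rose. Nr4a3 did not pass without WT day 17 graft 3. Over the alternatives the list had 6 to 9 genes that rose. In CD4 T cells of the same grafts, 17 of 20 tested members rose and 1 fell, where 17.5% of all 8288 genes rose.

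Of 15 tested interferon stimulated genes 8 fell and 0 rose, with a median of -0.80. Isg15, a ubiquitin-like protein, stood at 429, 212, 577 and 269 CPM in Rnls mutant day 10 and 447, 555, 518 and 225 in WT day 10 grafts. At day 17 it stood at 104, 39.2 and 91.6 CPM in Rnls mutant and 0, 50.1 and 315 in WT grafts. WT day 17 graft 4 lay above 3 of the 8 day 10 grafts, and the other day 17 grafts lay below all 8. Its log2 fold change was -2.17 ± 0.37 (adjusted p = 0.0002).

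Irf7 fell by 1.92 ± 0.39 on the log2 scale (adjusted p = 0.0014) and the interferon-induced Ifi27l2a by 1.21 ± 0.18 (adjusted p = 3.3e-05). The nuclease Isg20 fell by 1.15 ± 0.32, the GTPases Igtp by 0.89 ± 0.22 and Gbp2 by 0.80 ± 0.21, the tether Bst2 by 0.83 ± 0.23 and the surface antigen Ly6a by 0.79 ± 0.18. Isg20 did not pass without WT day 17 graft 3. The list had 5 to 11 genes that fell over the alternatives, with 5 in Treg with a Foxp3 UMI. In CD4 T cells 10 of 22 members fell and 1 rose, where 33.5% of all 8288 genes passed, 1449 of them higher (17.5%) and 1330 lower. None of the 12 tested genes of MHC class I presentation, many of which interferon also induces, passed in Treg for the mean change. In Rnls mutant grafts alone the class I chain H2-D1 fell by 0.42 ± 0.12 on the log2 scale (adjusted p = 0.028), a call lost in 6 of 14 fits that left out 1 graft.

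The promoters of the interferon stimulated genes that fell are shown because 4 of the 6 found in RefSeq (GRCm38.p6) hold the core of the interferon response element. The letters GAAANNGAAA were searched on both strands of the 250 bases before each gene's start and each gene was counted once. Each window of 30 bases is printed 5′ to 3′ on the gene's strand, and the capitals mark 1 match. Isg15 and Bst2 also hold overlapping matches next to the one shown, and in Gbp2 the match is on the opposite strand.
Isg15 (chr4:156200871-156200900, - strand): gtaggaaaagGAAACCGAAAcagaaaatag
Igtp (chr11:58199512-58199541, + strand): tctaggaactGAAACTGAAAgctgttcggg
Bst2 (chr8:71537577-71537606, - strand): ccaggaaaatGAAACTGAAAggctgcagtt
Gbp2 (chr3:142620594-142620623, + strand): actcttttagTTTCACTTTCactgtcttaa
The element was found in 936 of 27025 promoters (3.46%) and in 3.85% of those of genes tested in Treg. Irf7 and Isg20 had no match in these bases, and Ifi27l2a and Ly6a had no entry. A match is a stretch of letters and not a measured binding site. The genes were listed as interferon stimulated, so their share beside all promoters is no test of why they fell. List members that did not fall were not counted apart.

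Of the 23 tested genes whose symbols start with Hsp or Dnaj, a group chosen after their values were seen, 13 fell and 0 rose. Hsp90aa1, a chaperone, stood at 1894, 976, 1464 and 684 CPM in Rnls mutant day 10 and 1011, 1479.6, 858 and 1133 in WT day 10 grafts, and at 173, 333 and 244 and 416, 317 and 887 at day 17. WT day 17 graft 4 reached the range of day 10, and the other day 17 grafts lay below it. The log2 fold change was -1.82 ± 0.24 (adjusted p = 7.1e-06), and Hspa8 (-1.20 ± 0.14) and Dnaja1 (-1.46 ± 0.19) fell too. In CD4 T cells 22 of 53 such genes fell and 3 rose, beside the 1330 of 8288 that fell over all genes.

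Of the 13 Hsp and Dnaj genes that fell, 10 had a RefSeq promoter, and 3 (30.0%) held the heat shock element GAANNTTCNNGAA on either strand of the 250 bases before the start, against 139 of 27025 promoters (0.514%). They were Dnajb6, Hspd1 and Hspe1. Hspd1 and Hspe1 lie head to head and share the window, so they are 1 stretch of sequence. Among genes tested in Treg the element was in 0.651% of promoters. The group was chosen by symbol, so its share beside all promoters is no test of why these genes fell. Such genes that did not fall were not counted apart. Both windows are printed 5′ to 3′ on the strand given, with 1 match in capitals, and Hspd1 holds another that overlaps it.
Hspd1 (chr1:55088051-55088079, - strand): gccttccgGAAGGTTCTAGAAcggaccgt
Dnajb6 (chr5:29735844-29735872, + strand): agctccgaGAATCTTCCGGAAcgctagac

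Of 7 tested TGF-beta signaling genes 3 rose and 0 fell. Itgav (chr2:83724397-83806916, + strand), which pairs with Itgb8 to free active Tgfb1, stood at 345, 212, 267 and 191 CPM in Rnls mutant day 10 and 202, 234, 286 and 247 in WT day 10 grafts, and at 427, 647 and 661 and 508, 843 and 374 at day 17. Every day 17 graft lay above every day 10 graft. The log2 fold change was 1.19 ± 0.18 (adjusted p = 7.1e-05). The others were the receptor Tgfbr2 (1.23 ± 0.34, adjusted p = 0.015) and the inhibitor Smad7 (0.92 ± 0.22, adjusted p = 0.0045). Tgfbr2 did not pass without Rnls mutant day 17 graft 1 or WT day 17 graft 3, nor Smad7 without the latter. Itgb8 (0.88 ± 0.33, adjusted p = 0.064) and Tgfb1 (0.42 ± 0.20, adjusted p = 0.15) did not pass.

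Of 9 chemokine receptors and homing genes 2 rose and 1 fell. Itga4, the chain of the integrin VLA-4, rose from 20.9, 16.3, 4.30 and 11.2 CPM in Rnls mutant day 10 and 24.5, 24.7, 44.7 and 36.3 in WT day 10 grafts to 23.1, 176 and 102 and 231, 150.2 and 158 at day 17, by 2.60 ± 0.44 on the log2 scale (adjusted p = 0.0002). Rnls mutant day 17 graft 1 stayed within the day 10 range. All Treg of a Rnls mutant day 10 graft held 61456 to 232315 UMIs, so the Itga4 levels there rest on very few UMIs. The Itga4 partner Itgb1 rose by 0.81 ± 0.19 (adjusted p = 0.0045), and S1pr4 fell by 0.91 ± 0.29 (adjusted p = 0.033), a call lost in 6 of 14 fits that left out 1 graft. Of 9 genes of resting Treg 2 fell, Ly6c1 (-1.69 ± 0.30, adjusted p = 0.00034) and the egress receptor S1pr1 (-0.86 ± 0.25, adjusted p = 0.021). S1pr1 did not pass without Rnls mutant day 17 graft 3 or WT day 17 graft 3.

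Of 13 glycolysis and hypoxia genes 2 fell, Tpi1 (-1.27 ± 0.38, adjusted p = 0.024) and Gapdh (-0.57 ± 0.20, adjusted p = 0.046), which lost the call in 3 and 10 of 14 fits that left out 1 graft. Of 5 cell cycle genes 1 rose, Pcna at 1.19 ± 0.34 (adjusted p = 0.019), lost without Rnls mutant day 17 graft 2 or WT day 17 graft 1. In Rnls mutant grafts alone 3 of the 5 rose: Top2a, which untangles DNA, by 2.02 ± 0.52 (adjusted p = 0.017), the tubulin Tubb5 by 1.32 ± 0.38 (adjusted p = 0.035) and the tubulin-binding Stmn1 by 4.64 ± 1.19 (adjusted p = 0.017), while in WT grafts alone 0 passed. Stmn1 held 1 UMI in all Treg of Rnls mutant day 10, 36 of WT day 10, 19 of Rnls mutant day 17 and 1 of WT day 17 grafts, so its fitted value rests on groups near 0. The Top2a call was lost without Rnls mutant day 17 graft 3, those of Stmn1 and Tubb5 in 3 of 12 and 5 of 14 fits that left out 1 graft, and all 3 without the 6% highest doublet scores. These values cover annotated Treg only, and leave out the cycling cells with Foxp3 that were annotated Stem-Progenitor. Those were 14 cells of WT day 10, 4 of Rnls mutant day 10, 2 of WT day 17 and 1 of Rnls mutant day 17 grafts.

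The phosphatase Inpp4b (1.40 ± 0.13, adjusted p = 6.0e-08), the endosomal exchanger Slc9a9 (1.99 ± 0.22), Kdm2b (1.32 ± 0.15), Rabgap1l (1.19 ± 0.14), Dennd4a (1.21 ± 0.15) and the long non-coding RNA Lncpint (1.08 ± 0.15) had some of the smallest p among genes that rose. Among genes that fell, the actin-related Tmsb4x (-0.56 ± 0.06), Actg1 (-0.82 ± 0.09) and Tmsb10 (-0.62 ± 0.08) did so with Rpl24 (-0.80 ± 0.08). Of 82 tested ribosomal protein genes 34 fell and 0 rose, while 42 fell in WT grafts alone (4.55% of all genes) and 1 in Rnls mutant grafts alone (3.43% of all genes). Ribosomal protein genes took a median of 18.6% of Treg UMIs in WT day 10, 14.8% in WT day 17, 16.8% in Rnls mutant day 10 and 16.5% in Rnls mutant day 17 grafts.

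Transcripts of other cell types moved with the day too. Wfdc17, a macrophage transcript, had a log2 fold change of 2.62 ± 0.27 (adjusted p = 2.9e-07), Lyz2 1.66 ± 0.29 (adjusted p = 0.00023), H2-Eb1 1.75 ± 0.26 (adjusted p = 4.7e-05) and Cd74 0.64 ± 0.22 (adjusted p = 0.048). The 17 myeloid markers, all with a UMI in Treg, summed to 826 to 1130 CPM in Rnls mutant day 10, 922 to 1090 in WT day 10, 1764 to 2553 in Rnls mutant day 17 and 1135 to 1517 in WT day 17 grafts. In CD4 T cells they summed to 482 to 540, 618 to 697, 1745 to 1877 and 738 to 781 CPM. Of 12 dendritic and B cell markers 8 had a UMI in Treg, and their sums were 254 to 481, 420 to 582, 1109 to 1293 and 323 to 650.3 CPM in Treg in the same order, and 151 to 191, 323 to 407, 823 to 943 and 228 to 293 CPM in CD4 T cells. Flt3, Clec9a and Siglech were among those at 0 in Treg. Whether these UMIs came from Treg was not tested.

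**Figure D4:**
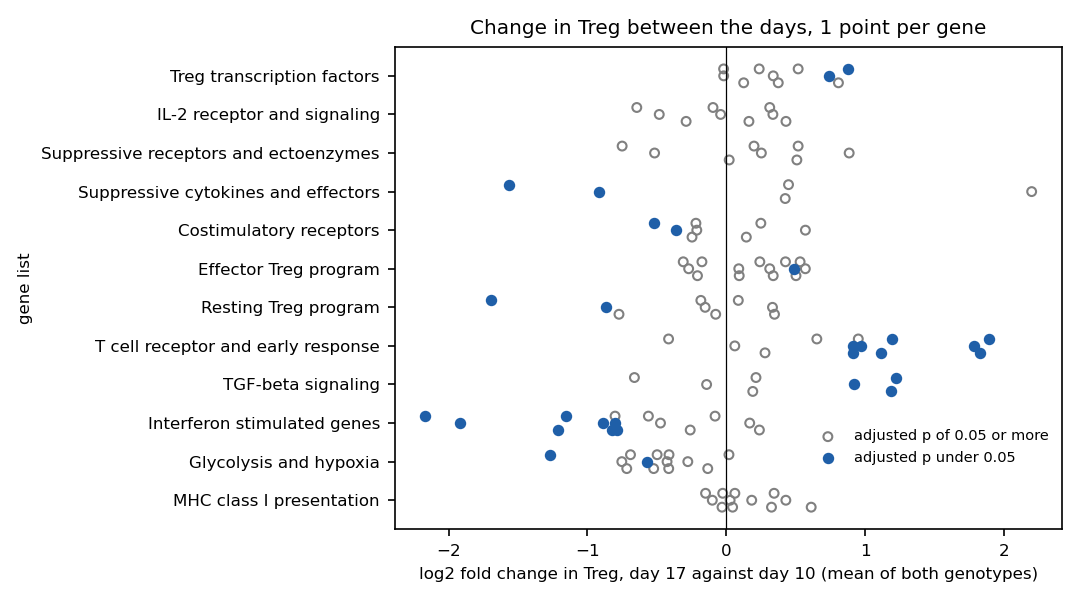
Log2 fold change of day 17 over day 10 in Treg (horizontal, mean of both genotypes) for each tested gene of 12 lists (rows), filled where the adjusted p was under 0.05. The 8 filled early response genes lie above 0 and the 8 filled interferon stimulated genes below 0. The lists were chosen with earlier results of these data known.

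Whether Treg changed with the day differently from CD4 T cells of the same grafts was tested as a difference of the changes, with the graft as a block, over 5636 genes. It passed in 60 genes (1.06%), 11 more positive in Treg and 49 more negative. Ctla4 stood at 252, 195, 156 and 228 CPM in CD4 T cells of Rnls mutant day 10, 283, 185, 231 and 158 of WT day 10, 389, 462 and 452 of Rnls mutant day 17 and 784, 823 and 499 of WT day 17 grafts. In Treg it stood at 1465, 1709, 1804 and 2141, 2101, 1517, 1805 and 1713, 2160.3, 2352 and 1923 and 2819, 1359.9 and 2424 CPM in the same order. Day 17 values of CD4 T cells all lay above their day 10 values, while Treg values overlapped. The log2 change was 1.28 in CD4 T cells and 0.20 in Treg, with a difference of -1.21 ± 0.16 (adjusted p = 2.2e-06).

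Other receptors and factors that rose in CD4 T cells had smaller or opposite values in Treg. The costimulator Icos changed by -0.21 in Treg and 0.31 in CD4 T cells (difference -0.62 ± 0.11, adjusted p = 0.0006), and the adhesion receptor Slamf6 by -0.53 and 0.65 (difference -1.28 ± 0.22, adjusted p = 0.00046). For genes of resting T cells, Klf2 changed by -0.15 and 0.83, Ccr7 by -0.08 and 1.33 and Lef1 by 0.09 and 1.14, with differences of -1.07 ± 0.21, -1.44 ± 0.32 and -1.12 ± 0.27. Areg changed by 0.45 and 1.52 (difference -1.27 ± 0.31, adjusted p = 0.018), from low levels in CD4 T cells. The Lef1 call was lost without Rnls mutant day 17 graft 2 or WT day 10 graft 1, and that of Areg without Rnls mutant day 10 graft 3, Rnls mutant day 17 graft 1 or WT day 10 graft 2.

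In the other direction, Itgav changed by 1.19 in Treg and -0.61 in CD4 T cells (difference 1.60 ± 0.23, adjusted p = 2.2e-05), Klrg1 by 0.43 and -1.28 (difference 1.50 ± 0.35, adjusted p = 0.016) and Itga4 by 2.60 and 0.70 (difference 1.75 ± 0.42, adjusted p = 0.016). The Klrg1 call was lost without Rnls mutant day 17 graft 1 or WT day 17 graft 3, and that of Itga4 without Rnls mutant day 17 graft 2. Itga4 in Rnls mutant day 10 Treg rests on very few UMIs, as said above. The changes of Gzmb (difference 0.13 ± 0.17, adjusted p = 0.87), Isg15 (-0.82 ± 0.36, adjusted p = 0.4) and Ikzf2 (0.94 ± 0.27, adjusted p = 0.071) did not pass this test. For Hsp90aa1 the change was -1.82 in Treg and -2.82 in CD4 T cells (difference 0.86 ± 0.19, adjusted p = 0.0085), a call lost without WT day 17 graft 4.

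**Figure D5:**
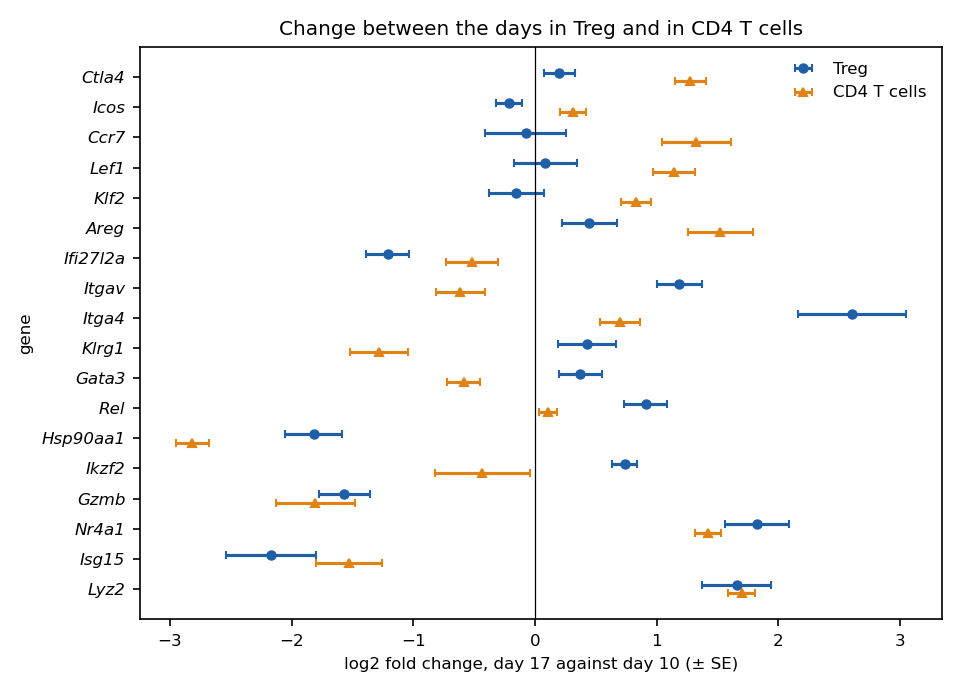
Log2 fold change of day 17 over day 10 (horizontal, ± SE) in Treg (blue circles) and CD4 T cells (orange triangles) for 18 named genes (rows). Ctla4 lies at 0.20 in Treg and 1.28 in CD4 T cells and Itgav at 1.19 and -0.61, while the intervals of Gzmb, Isg15 and Lyz2 overlap or touch between the types.

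Few genes passed between the genotypes in Treg. At day 10, 4 genes passed (0.172%), with 213 at an unadjusted p under 0.05. Ltb, a lymphotoxin chain that organizes lymphoid tissue, stood at 2469.8, 2311, 1563 and 1356 CPM in Rnls mutant and 1035, 1134, 858 and 995 in WT day 10 grafts, and the groups did not overlap. Its log2 fold change of Rnls mutant over WT was 0.91 ± 0.17 (adjusted p = 0.012). It did not pass without Rnls mutant day 10 graft 1 or 2 or WT day 10 graft 3 or 4. The others were lower in Rnls mutant grafts: Rpl35 (-0.77 ± 0.14, adjusted p = 0.012), Rps29 (-0.50 ± 0.11, adjusted p = 0.048) and the predicted gene Gm10076 (-0.82 ± 0.17, adjusted p = 0.048). Rps29 and Gm10076 lost the call in 9 and 10 of 14 fits that left out 1 graft, and Rpl35 in 4. The count fell to 0 without Rnls mutant day 10 graft 1 or 2 or WT day 10 graft 3, fell to 2 with DESeq2 and rose to 11 without WT day 17 graft 3.

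At day 17, 1 gene passed (0.0429%, 215 at an unadjusted p under 0.05). Ccl8, a monocyte-attracting chemokine that macrophages make, stood at 497, 529 and 519 CPM in Treg of Rnls mutant and 162, 41.7 and 118 of WT day 17 grafts, which did not overlap. The log2 fold change was 2.54 ± 0.39 (adjusted p = 0.0014). CD4 T cells of the same grafts had 513, 619.6 and 546 and 125, 54.0 and 87.6 CPM, and the myeloid markers above were also highest in both types in Rnls mutant day 17 grafts. The count was 10, 3 and 6 without WT day 17 graft 1, 3 or 4. The Ccl8 call held in all 14 fits that left out 1 graft and was lost without the Treg that carried 2 or more UMIs of other types' markers. Whether the UMIs came from Treg was not tested.

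Over both days 0 of 2331 genes passed between the genotypes by edgeR (0.0%), 147 had an unadjusted p under 0.05, and DESeq2 also called 0. Foxp3, Il2ra, Ikzf2, Ctla4, Gzmb and Areg did not pass at either day, nor did any gene of the Treg transcription factor, interleukin 2, suppressive receptor or interferon lists. In simulated counts at this design, 200 of 2331 genes were changed. Of changed genes that passed the filter, the test found 68.8% of those at 1 log2 unit at day 10 and 35.2% at day 17. At 2 log2 units it found 95.8% and 84.9%. Far fewer genes were called between the genotypes, and recovery with so few changed genes was not simulated. Set against the genotype difference of CD4 T cells, 1 of 5636 genes passed (0.0177%), the chemokine Ccl3, with 16 UMIs in all Treg of Rnls mutant day 10, 0 of WT day 10, 6 of Rnls mutant day 17 and 1 of WT day 17 grafts. Of the 16 UMIs most lay in Rnls mutant day 10 graft 1, at 115 CPM.

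The genotype difference itself changed between the days in 26 genes (1.12%), 19 more positive at day 17 and 7 more negative. Klf2, a factor that keeps T cells quiescent and circulating, stood at 429, 407, 521 and 572 CPM in Rnls mutant and 368, 419, 241 and 189 in WT day 10 grafts, and at 208, 294 and 214 and 970.3, 325 and 512 at day 17. The groups overlapped at day 10, where Rnls mutant graft 2 lay just below WT graft 2, and at day 17 all Rnls mutant grafts lay below all WT grafts, with an interaction of -1.93 ± 0.44 (adjusted p = 0.026). The activation marker Cd69 (-2.30 ± 0.53) and the cytokine signaling inhibitor Socs1 (-2.03 ± 0.47) had the same sign (both adjusted p = 0.026), as did Ltb (-1.47 ± 0.27, adjusted p = 0.0041) and H2-D1 (-0.77 ± 0.16, adjusted p = 0.016). Klf2 and Cd69 lost the call in 5 and Socs1 in 4 of 14 fits that left out 1 graft. With the opposite sign were Stmn1 (8.44 ± 1.72, adjusted p = 0.011, on the few UMIs given above), Ccl8, Lyz2, the MHC class II chains H2-Aa and H2-Ab1, and 8 ribosomal protein genes such as Rps29 (1.07 ± 0.17) and Rpl35 (1.40 ± 0.23). The interaction count was 11 without Rnls mutant day 10 graft 3, 15 to 17 without Rnls mutant day 17 graft 1 or 3, WT day 10 graft 3 or WT day 17 graft 3, and 42 without WT day 17 graft 1.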

How the data were processed

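The data were a single-cell RNA sequencing table of CD45+ cells from 16 NIT-1 grafts (10x Genomics 3′ protocol v3.1, hashtagged), 4 for each genotype and day. The authors deposited whole-number UMI counts per gene and cell with a table of each cell's library, hashtag, cluster and type, and these were used as deposited. The processing notes name Cell Ranger and the build mm10, and the filters on cells and the hashtag assignment are not given in the sources used here.

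UMI counts were summed per graft over annotated Treg, and over CD4 T cells, for grafts with at least 10 cells of the type. Sums were tested with edgeR 4.0.16 in R 4.3.3 (TMM, filterByExpr, glmQLFit, glmQLFTest), with genotype at each day as 4 groups that shared 1 estimate of the spread and Benjamini-Hochberg adjustment over all genes tested. Treg and CD4 T cells were compared in their day or genotype changes with the graft as a block. Levels side by side are CPM, with 10 CPM added before ratios. Shares of cells were compared by exact permutation within the other factor. Total Treg UMIs per graft ran from 43285 to 232315 in the 14 grafts tested.

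Named genes were Foxp3, Il2ra, up to 6 members per gene list and comparison, the 10 called genes in each direction that had the smallest p, and 12 in each direction for levels beside CD4 T cells. The members and lists were chosen with earlier results of these data known. Lists with fewer than 2 tested members in Treg (other helper lineages, granulocyte, CD8 and NK cell, beta and red blood cell transcripts) had no called gene between the days, and of 7 conventional T cell genes Cd247 (0.74) rose. Scrublet in scanpy 1.11.5 called 2 of 22441 cells at its own threshold and was taken as void, so doublets were left in and the 6% highest scores were removed as an alternative. Simulated counts with 200 changed genes were tried for the mean day change, the genotypes at day 10 and at day 17, and the day change against CD4 T cells. False calls numbered 7, 8, 7 and 13 in that order. The other comparisons, such as the interaction, were not simulated. At the mean day change 84.0% of genes changed by 1 log2 unit were found among 2160 tested. Other normalizations, filters, cell minimums, DESeq2 1.42.0 and leaving out each graft were tried, and Treg with a Foxp3 UMI at any number of cells per graft was added after seeing the data. Positions are GENCODE M21 and promoters RefSeq, both on GRCm38. The result for 1 of the cell type markers is not reported here.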

Additional observations from a re-analysis of the deposited data

Results flagged for a closer look

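The share of Treg among CD45+ cells in WT day 17 graft 4, at 4.25%, stood apart from the 3 other WT day 17 grafts by Dixon's test. It was the 1 flag among 46 groups of 4 or more grafts tested, where chance flags about 1 in 20.

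The genotype difference changed between day 10 and day 17 in 26 genes by the interaction term of the edgeR fit. Among them the chemokine Ccl8 (4.26), Lyz2 (2.82), H2-Aa (2.77) and H2-Ab1 (2.52) became more positive in Rnls mutant against WT Treg at day 17. Rps29 (1.07) and Rpl35 (1.40), both ribosomal, did too. Klf2 (-1.93), Cd69 (-2.30), Socs1 (-2.03), Ltb (-1.47) and H2-D1 (-0.77) became more negative. In CD4 T cells the sum over the list of 17 myeloid markers was highest in Rnls mutant day 17 grafts, at 1745 to 1877 CPM against 1764 to 2553 CPM in Treg.

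The change from day 10 to day 17 in Treg differed from that in CD4 T cells in 60 genes. More negative in Treg were Ctla4 (-1.21), Icos (-0.62), Slamf6 (-1.28), Socs3 (-2.54), Klf2 (-1.07), Ccr7 (-1.44), Lef1 (-1.12), Areg (-1.27), Ifi27l2a (-0.85) and Stat4 (-0.61), all as log2 differences. More positive in Treg were Itgav (1.60), Klrg1 (1.50), Itga4 (1.75), Gata3 (0.90), Rel (0.68) and Hsp90aa1 (0.86). The calls of Gata3 and Rel were lost in 9 and 8 of 14 fits that left out 1 graft.

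The genotype difference in Treg differed from that in CD4 T cells in 1 gene, Ccl3, with a fitted log2 difference of 6.64 that rests on 0 UMIs in the WT day 10 Treg and is no bound. The call was lost without Rnls mutant day 17 graft 3 or WT day 17 graft 3.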

How the results depend on the processing

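The counts of called genes moved by more than 1.5 times in several settings, and the cause was not tested unless given. DESeq2 called 2 genes between the genotypes at day 10, 85 between the days in Rnls mutant grafts, 232 for the mean day change, 15 for the interaction, 38 for the day change against CD4 T cells and 0 for the genotype difference against CD4 T cells. With no filter on low counts these were 16 at day 10, 15 at day 17, 2 over both days, 47 for the interaction and 4 for the genotype difference against CD4 T cells. A minimum of 5 cells per graft gave 2 at day 10 and 11 for the interaction. A minimum of 20 cells, which left WT day 17 with 1 graft, gave 11 at day 10, 34 at day 17, 67 for the interaction and 16 for the genotype difference against CD4 T cells, and the lone graft is assumed to vary like the other groups. Without the 6% highest Scrublet scores 2 genes were called at day 10 and 4 at day 17. Without Treg that held 2 or more UMIs of other types' markers, 3 were called at day 17, 85 between the days in Rnls mutant grafts and 212 for the mean day change. Treg with a Foxp3 UMI, with 1 WT day 17 graft, gave 2 and 5 for the genotypes, 60 in WT, 74 in Rnls mutant and 134 for the mean day change, and 31 and 5 for the differences against CD4 T cells. With any number of such cells per graft, a setting chosen after seeing the data, these were 0, 2, 119, 46, 171, 37 and 3, with 5 for the interaction.

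Leaving out 1 graft gave 0 to 11 called genes between the genotypes at day 10, 1 to 10 at day 17 and 0 to 0 over both days. It gave 136 to 205 between the days in WT, 66 to 213 in Rnls mutant grafts, 265 to 369 for the mean, 11 to 42 for the interaction, and 40 to 78 and 1 to 7 for the day and genotype differences against CD4 T cells, the latter 7 without WT day 17 graft 4. For Treg shares the genotype differences ran from -0.689 to 0.523 percentage points at day 10, -0.909 to 0.118 at day 17 and -0.600 to 0.131 over both days. The day differences ran from -0.642 to 0.283 in WT, -1.07 to 0.165 in Rnls mutant grafts and -0.655 to 0.0762 over both.

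No share comparison passed its test, so changes of sign are within the spread. As shares of Treg and CD4 T cells, 4 differences changed sign: genotype at day 10 (-3.24 percentage points) and day in WT (2.34), Rnls mutant (1.98) and both (2.16). As shares of all T cells they were -0.937, 5.03, 2.46 and 3.74. The day difference in WT was 0.124 without the highest Scrublet scores and 0.227 for Treg with a Foxp3 UMI. Among named genes that did not pass the test, the day change of Foxp3 was 0.14 at a minimum of 20 cells, 0.11 without cells that held other types' markers, and 0.05, 0.01 and 0.072 without Rnls mutant day 10 graft 1, Rnls mutant day 17 graft 1 or WT day 17 graft 1. That of Ctla4 was -0.15 at 20 cells and -0.15 with a Foxp3 UMI, that of Il2ra -0.020 with a Foxp3 UMI at any number of cells and -0.24 without WT day 17 graft 3 (up to 0.32 without another graft), and the Treg and CD4 difference of Gzmb -0.11 at 5 cells, -0.0542 at 20 cells and -0.14 with a Foxp3 UMI at any number of cells. None of the named genes that passed their test changed direction in a setting tried.

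Whether WT and Rnls mutant grafts of the same hashtag number shared a mouse is not known from the labels. The correlation of deviations between WT and Rnls mutant grafts of 1 number ran from -0.0868 to 0.105 over 6 pairs. With hashtag number within each day as a block, which pairs WT with Rnls mutant grafts, the count was 2 at day 17 and 15 for the interaction. Another block, hashtag number within each genotype, gave 114 for the day in WT and 243 for the mean day change. That block matches day 10 to day 17 grafts of 1 genotype, so its counts say nothing of WT and Rnls mutant grafts sharing a mouse. At day 17, 3 grafts per genotype with 14 to 42 Treg each entered, and the parts of graft number and depth in the counts were not tested.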
